A study of Arabidopsis thaliana with 26 samples.

Results

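Transcript levels of 4 genes of photosynthetic carbon fixation were followed across all 13 groups of plants of the series: RCA, PRK and SBPASE, which encode proteins of the Calvin cycle, and TRXF2, which encodes a thioredoxin that switches such enzymes on in the light. For each gene the rule took the probe sets (groups of short probes for 1 transcript) whose annotation names that gene and no other, and kept the one with the highest mean. Each gene had exactly 1 such probe set, so the rule discarded none: 245061_at for RCA (locus AT2G39730), 255720_at for PRK (AT1G32060), 251762_at for SBPASE (AT3G55800) and 250133_at for TRXF2 (AT5G16400). They are 4 of the 22810 probe sets of the ATH1 array, a 1-colour oligonucleotide array for Arabidopsis thaliana. RefSeq lists 3 transcripts for RCA and 1 for each of the other genes, and the array does not separate the RCA transcripts here.

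All plants were harvested as aerial tissue, and every sample pooled 18 plants. Lines sf6, sf3 and sf2, which carry mutations induced with EMS and which the series title ties to the sfr6, sfr3 and sfr2 mutations, were set beside wild type (wt), all labelled col-0. These 4 lines grew on agar at 21 °C and 100% humidity under continuous light and were sampled after 24 h at 4 °C in continuous light (cold) or without treatment (control). Shoots of sf6 and wt were also cut off and kept in a dry air stream for 2 h (drought), and no group here was cut without drying. Another 3 groups carry the codes 00f, 03f and 24f, with neither a genotype nor a meaning of the code in the labels. Their plants grew at 4 °C on compost treated with Intercept, with a day of 9 h light and 15 h dark, in air of 70% humidity. Every group had 2 arrays. The labels do not say whether the 2 came from separate sowings, and the spread behind each p-value may therefore be technical.

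The Calvin cycle fixes carbon dioxide in the chloroplast stroma with the enzyme Rubisco and then rebuilds the acceptor sugar that Rubisco uses. Rubisco activase (RCA) frees the active sites of Rubisco from sugar phosphates that block them. Sedoheptulose-1,7-bisphosphatase (SBPASE) and phosphoribulokinase (PRK) act in the regeneration of the acceptor, PRK in its last step. In the light, electrons from photosystem I pass through ferredoxin and a reductase to f-type thioredoxins such as TRXF2, which reduce disulfides of SBPASE, PRK and the redox-sensitive form of rubisco activase. Arrays measure transcripts only, not the redox state or the activity of these proteins.

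Values are linear probe set intensities, scaled so that every array has a trimmed mean of 100.01. Array medians were 38.2 to 44.4. On the log2(intensity + 16) scale the 2 arrays of a group correlated at 0.983 to 0.9918 over all probe sets other than controls. A difference between groups is given on the log2(intensity + 16) scale and was called when its limma adjusted p, corrected over all probe sets tested, was under 0.05. With 2 arrays in a group, precision is limited by their number. Since tissue as a whole was sampled, fewer cells of a type and less RNA per cell cannot be told apart. Of 7 genes fixed as markers of green tissue 2 were measured, LHCB4.1 and LHCB4.2, and both were bright on all 26 arrays, with a lowest value of 506.7. Of 8 root markers, 2 were measured: EXPA7 stayed between 10.0 and 36.6, and PYK10, a beta-glucosidase gene of roots and hypocotyls, reached 803.0 to 1659.1 on the agar-grown plants, against 16.9 to 129.4 on the compost plants.

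RCA had the narrowest range of the 4 genes over the 13 groups, with a ratio of 1.56 between the highest and the lowest group mean. It was also the brightest, with a mean intensity of 2547.0, against 2127.3 for PRK, 1884.1 for SBPASE and 425.6 for TRXF2. The brightest probe set of each array read only 3013.6 to 4480.8, so RCA lay near the top of the scale. The part of brightness in the ranges was not tested. Its cold arrays gave 2246.6 and 3003.5 in sf6, 2720.7 and 1991.0 in sf3, 2130.9 and 2035.5 in sf2, and 2513.1 and 2526.9 in wt. The control arrays gave 2759.0 and 2826.6 in sf6, 2781.3 and 2763.4 in sf3, 3076.1 and 2890.0 in sf2, and 3186.8 and 2839.7 in wt. Cold and control arrays overlapped in sf6, and the cold arrays lay below the control arrays in sf3, sf2 and wt, as did those of 33% of all probe sets in sf3, 33% in sf2 and 35.1% in wt. Dried shoots had 2472.1 and 3334.1 in sf6 and 2727.6 and 2527.8 in wt, and the compost groups had 2213.7 and 1995.9 in 00f, 1924.7 and 1927.8 in 03f, and 2037.6 and 2768.8 in 24f. Ordered by mean, wt control was highest (3013.2 ± 245.4, SD, n = 2) and 03f lowest (1926.2 ± 2.2), and neighbours in the order overlapped at every step except sf3 control over wt drought and sf2 cold over 03f. The order is loose: after scaling every array to the common median only 2 of 13 groups kept their place, and 00f was then lowest.

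PRK separated the cold and compost groups from the others. Its cold arrays gave 1528.2 and 2148.6 in sf6, 1810.4 and 1510.3 in sf3, 1864.2 and 1828.1 in sf2, and 1998.8 and 1670.2 in wt. In control plants it had 2643.8 and 2742.8 in sf6, 2482.4 and 2640.9 in sf3, 2763.5 and 2426.0 in sf2, and 2814.1 and 2634.9 in wt. Every one of the 8 cold arrays lay below every one of the 8 control arrays, which held for 14.9% of all probe sets. Dried shoots had 2452.7 and 2933.4 in sf6 and 2625.1 and 2390.3 in wt, within the span of the controls or just outside it. On compost PRK gave 2007.5 and 1721.2 in 00f, 1378.4 and 1178.1 in 03f, and 1528.1 and 1587.3 in 24f. The step in the order of means fell between wt drought (2507.7 ± 166.0) and 00f (1864.4 ± 202.4), and a second one lay above 03f (1278.2 ± 141.6), while all other neighbours overlapped. After scaling to the common median 6 of 13 groups kept their place. The highest mean was then that of sf6 control instead of wt control, and 03f stayed lowest.

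SBPASE was lower in cold than in control plants on agar, and stood lowest in 24f. Its cold arrays gave 1696.2 and 2109.7 in sf6, 1890.6 and 1521.8 in sf3, 1693.4 and 1664.3 in sf2, and 1953.5 and 1752.9 in wt. The control arrays gave 2361.3 and 2432.5 in sf6, 2118.1 and 2127.6 in sf3, 2331.7 and 2231.9 in sf2, and 2314.8 and 2165.1 in wt. As for PRK and 14.9% of all probe sets, every one of the 8 cold arrays lay below every one of the 8 control arrays. Here the margin was narrow (2109.7 at most, against 2118.1 at least). Dried shoots had 2167.5 and 2603.5 in sf6 and 2218.3 and 2016.9 in wt, so that wt drought overlapped with sf6 cold. The compost groups had 1733.2 and 1505.2 in 00f, 1426.3 and 1294.5 in 03f, and 869.8 and 787.1 in 24f. No pair of them overlapped: 03f lay below 00f, as did 40.7% of all probe sets, and 24f lay below 00f and 03f, as did 30.1% and 26.6% of all probe sets. The mean of 24f (828.4 ± 58.5) was the lowest of the 13, that of sf6 control (2396.9 ± 50.3) the highest, and this order was the same after scaling to the common median for all 13 groups.

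TRXF2 had the widest range, with a ratio of 4.84 between the highest and the lowest group mean. In the cold it gave 186.6 and 243.2 in sf6, 253.1 and 183.6 in sf3, 289.5 and 264.9 in sf2, and 190.8 and 176.0 in wt. In control plants it gave 675.2 and 659.6 in sf6, 580.2 and 621.0 in sf3, 749.0 and 715.1 in sf2, and 719.1 and 615.4 in wt. The highest cold array (289.5) stayed far below the lowest control array (580.2). All 8 cold arrays lay below all 8 control arrays for 14.9% of all probe sets. Dried shoots kept levels like those of the controls, with 638.4 and 594.7 in sf6 and 664.9 and 709.8 in wt. The compost arrays, with 181.5 and 258.2 in 00f, 134.7 and 167.8 in 03f, and 315.7 and 277.7 in 24f, spread around the range of the cold arrays. The gap in the order of means lay between sf3 control (600.6 ± 28.8) and 24f (296.7 ± 26.9), sf2 control was highest (732.0 ± 24.0) and 03f lowest (151.2 ± 23.4). After scaling to the common median 10 of 13 groups kept their place, with the same highest and lowest group. Levels of compost and agar plants are set side by side without a test, since the regimes differ in medium, light, temperature and humidity, and since the root marker PYK10 differed as given above.

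**Figure D1:**
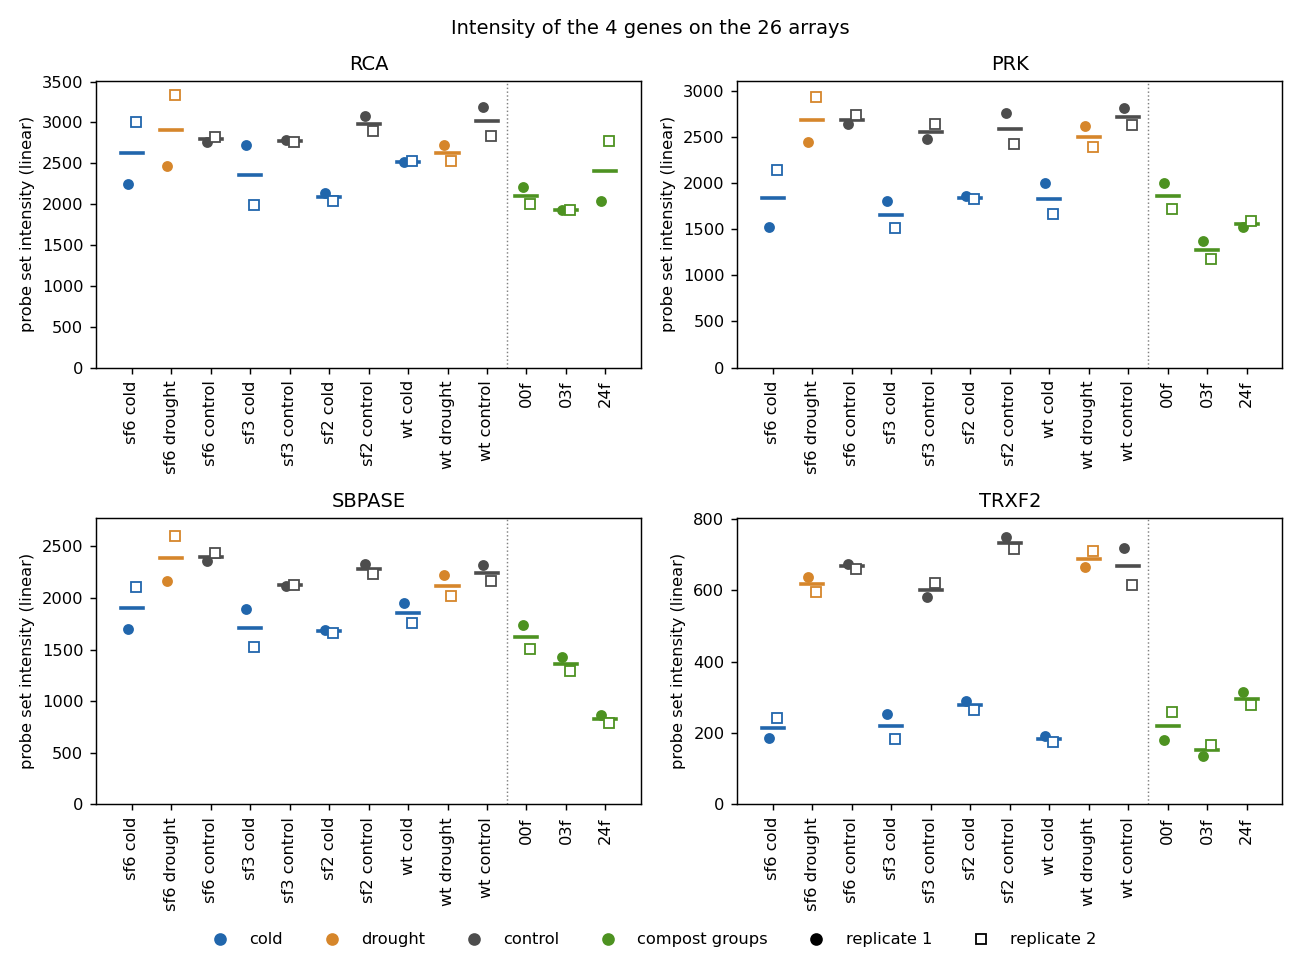
Probe set intensity (linear axis from 0) of RCA, PRK, SBPASE and TRXF2 in the 13 groups, with filled circles for replicate 1, open squares for replicate 2 and bars for the mean of both arrays; colours mark cold, drought, control and compost groups. TRXF2 lies between 176.0 and 289.5 in the 8 cold arrays and between 580.2 and 749.0 in the 8 control arrays. For 14.9% of all probe sets the 8 cold arrays lie below the 8 control arrays. SBPASE falls lowest in 24f (869.8 and 787.1).

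The first comparison asked how 24 h at 4 °C changed the 4 transcripts in each line. TRXF2 fell in all 4 lines, with a log2 difference of -1.58 in sf6, -1.41 in sf3, -1.35 in sf2 and -1.77 in wt (limma adjusted p = 6.36e-08, 2.41e-07, 4.54e-07 and 1.34e-08). The 95% confidence interval was -1.86 to -1.29 in sf6, -1.69 to -1.13 in sf3, -1.64 to -1.07 in sf2 and -2.06 to -1.49 in wt. None of the alternatives tried ended a TRXF2 call in these comparisons. In the order of all tested probe sets the change of TRXF2 lay among the lowest 1.86% in sf6, 2.71% in sf3, 2.37% in sf2 and 1.79% in wt.

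PRK, which makes the sugar that Rubisco carboxylates, also fell in all 4 lines, and by less. The log2 difference was -0.57 in sf6 (95% interval -0.87 to -0.27), -0.63 in sf3 (-0.93 to -0.32), -0.48 in sf2 (-0.79 to -0.18) and -0.57 in wt (-0.87 to -0.27), with limma adjusted p = 0.00365, 0.00173, 0.0111 and 0.00326. The call ended in sf6 without sf6 cold replicate 1 (-0.32, adjusted p = 0.0864) and in wt without wt cold replicate 2 (-0.44, adjusted p = 0.0527). In sf2 it ended without sf2 control replicate 1 (-0.39, adjusted p = 0.102) or sf2 cold replicate 2 (-0.47, adjusted p = 0.0586).

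SBPASE, a phosphatase of the regeneration steps, fell in the 3 mutant lines, with a log2 difference of -0.34 in sf6, -0.32 in sf3 and -0.44 in sf2 (limma adjusted p = 0.0302, 0.04 and 0.00732). In wt its difference was -0.27 (95% interval -0.53 to -0.02) and was not called (limma adjusted p = 0.0745). In sf6 the call ended without sf6 cold replicate 1 (-0.18, adjusted p = 0.309) or either sf6 control array (0.0839 without replicate 1 and 0.125 without replicate 2), and under median scaling (-0.22, adjusted p = 0.177). In sf3 it ended without sf3 cold replicate 2 (-0.17, adjusted p = 0.377) or either sf3 control array (0.108 without replicate 1 and 0.115 without replicate 2), and under median scaling (-0.21, adjusted p = 0.209). In sf2 it ended without sf2 control replicate 1 (-0.41, adjusted p = 0.0511).

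RCA was called lower in sf2 and in no other line, with a log2 difference of -0.51 (95% interval -0.84 to -0.19, limma adjusted p = 0.0118). Under quantile normalization the sf2 value was -0.23 (adjusted p = 0.0187), close to the -0.21 in sf3 and -0.19 in wt, which were then called too. That setting also moved PRK in sf2 to -0.31 and SBPASE in sf2 to -0.28, both still called. In the other lines its log2 difference was -0.10 in sf6 (-0.43 to 0.22), -0.25 in sf3 (-0.57 to 0.07) and -0.25 in wt (-0.58 to 0.07), with limma adjusted p = 0.618, 0.202 and 0.188. The sf6 value was 0.10 without sf6 cold replicate 1 and -0.31 without sf6 cold replicate 2, so its sign rests on single arrays. The sf2 call ended without sf2 control replicate 1 (-0.47, adjusted p = 0.0734) or sf2 cold replicate 2 (-0.48, adjusted p = 0.0696). Without sf3 cold replicate 1, the brighter of that pair, RCA was called in sf3 (-0.47, adjusted p = 0.031).

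In the cold, 3 of the 4 genes were called lower in sf6, 3 in sf3, 4 in sf2 and 2 in wt. Against this, 25.9% of all tested probe sets were called lower in sf6, 24.2% in sf3, 23% in sf2 and 26.4% in wt. Averaged over the 4 lines, a contrast added after the data had been seen, all 4 genes were lower: TRXF2 with -1.53 (95% interval -1.67 to -1.39), PRK with -0.56 (-0.71 to -0.41), SBPASE with -0.34 (-0.47 to -0.21) and RCA with -0.28 (-0.44 to -0.12) on the log2 scale. In that contrast 37.7% of all probe sets were called lower, and the RCA call ended under median scaling (-0.17, adjusted p = 0.0582). Median scaling moved the median log2 difference of all probe sets in wt from -0.054 to 0.05.

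**Figure D2:**
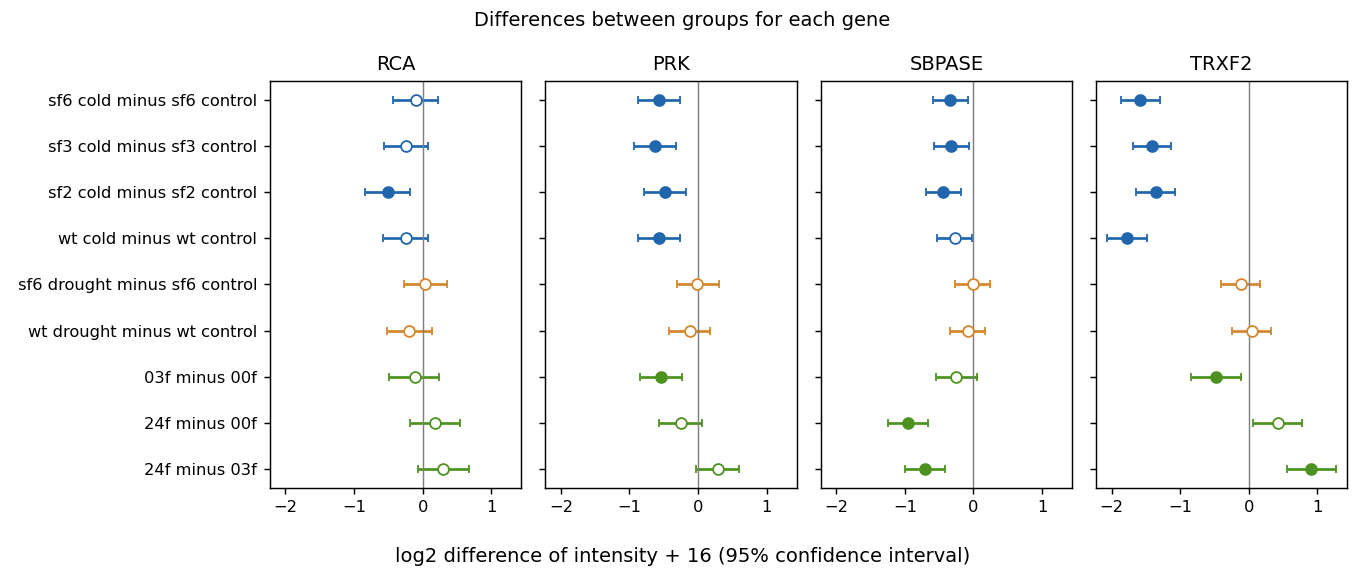
Log2 difference of intensity + 16 with its 95% confidence interval for RCA, PRK, SBPASE and TRXF2, in cold minus control (blue), drought minus control (orange) and the compost comparisons (green); filled points passed the limma adjusted p of 0.05 and open points did not. The 4 cold intervals of TRXF2 lie between -2.06 and -1.07, no drought point is filled, and SBPASE and TRXF2 lie on opposite sides of 0 in 24f minus 03f.

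Markers of green tissue, and PYK10 of the 2 root markers, moved in the same comparisons. LHCB4.2, a chlorophyll-binding antenna protein of photosystem II, fell in the cold in every line, with log2 differences of -1.76 in sf6, -1.82 in sf3, -1.54 in sf2 and -2.11 in wt. LHCB4.1 fell in sf2 (-0.47) and wt (-0.32) and was not called in sf6 (-0.22) or sf3 (-0.26), and in wt its call ended under median scaling (-0.18, adjusted p = 0.243) and without any 1 of the 4 arrays (adjusted p = 0.088 to 0.137). The summed level of the 2 green markers was 2840.2 to 4099.8 on the 8 cold arrays, against 5309.8 to 6418.2 on the 8 control arrays. PYK10 fell in every line (-0.82 to -0.60), and the summed level of the 2 root markers was 814.2 to 1114.1 in the cold, against 1308.3 to 1681.4 in control. That sum is nearly all PYK10. The other root marker, EXPA7, was called in no line, with 11.2 to 36.6 on the cold arrays and 20.0 to 32.5 on the control arrays. No marker of either list was at 0 on any array. Their part in the changes of the 4 genes was not tested.

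Drying for 2 h was compared with untreated plants next. None of the 4 genes was called in sf6 or in wt by limma, where 3.93% and 9.81% of all tested probe sets were called in either direction. No member had an unadjusted p under 0.05. TRXF2 had a log2 difference of -0.11 in sf6 (95% interval -0.40 to 0.17) and of 0.05 in wt (-0.24 to 0.33). PRK had -0.01 in sf6 (-0.31 to 0.30) and -0.12 in wt (-0.42 to 0.18), and SBPASE had -0.01 in sf6 (-0.27 to 0.24) and -0.08 in wt (-0.34 to 0.17). RCA had 0.04 in sf6 (-0.28 to 0.36) and -0.20 in wt (-0.52 to 0.13). The interval that reached farthest from 0 was that of RCA in wt. Of the 17 related genes of the lists described below, Cpn60beta2, a plastid chaperonin subunit, fell in wt drought by 0.62 (limma adjusted p = 0.00219) and no other was called in either line. Of the markers, PYK10 fell in wt drought (-0.81, limma adjusted p = 0.000435) and had -0.22 in sf6 drought, not called, and LHCB4.1, LHCB4.2 and EXPA7 were called in neither.

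The mutant lines were then set against wt in the same treatment. No member was called in any of the 7 comparisons by limma, and 1 of the 28 differences had an unadjusted p under 0.05. The share of all probe sets called was 0.0293% for sf6, 0.129% for sf3 and 0.111% for sf2 in control plants, 0.0117%, 0.0234% and 0.129% for the same lines in the cold, and 0.00586% for sf6 in drought. In control plants the 12 log2 differences of the 4 genes lay between -0.14 (TRXF2 in sf3, 95% interval -0.43 to 0.14) and 0.13 (TRXF2 in sf2, -0.15 to 0.42). The one unadjusted p under 0.05 was that of TRXF2 in sf2 cold, which had 289.5 and 264.9, against 190.8 and 176.0 in wt cold. The sf2 arrays lay above the wt arrays, as did those of 22% of all probe sets, and the log2 difference was 0.56 (95% interval 0.27 to 0.84, unadjusted p = 0.000702, limma adjusted p = 0.129). It was called when every array was set relative to the median of its bright probe sets (0.71, adjusted p = 0.0144), a scaling added after the data had been seen. The other cold differences of TRXF2 were 0.20 in sf6 (-0.08 to 0.48) and 0.22 in sf3 (-0.07 to 0.50), and those of RCA, PRK and SBPASE lay between -0.27 and 0.04. In sf2 cold both RCA arrays and both SBPASE arrays lay below those of wt cold, as did 18.4% of all probe sets. In drought the sf6 values differed from wt by -0.15 to 0.17.

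Whether the cold response itself differed between a mutant and wt was tested directly. None of the 12 differences was called by limma and 1 had an unadjusted p under 0.05, where 0.0352% of all probe sets were called for sf6, 0.0528% for sf3 and 0.117% for sf2. For TRXF2 the response of the mutant minus that of wt was 0.20 in sf6 (95% interval -0.20 to 0.60), 0.36 in sf3 (-0.04 to 0.76) and 0.42 in sf2 (0.02 to 0.82), a positive value meaning a smaller fall. The unadjusted p was 0.312, 0.0728 and 0.0402, and the limma adjusted p was 0.757, 0.779 and 0.429. Leaving out 1 array gave 0.02 to 0.38 in sf6, 0.15 to 0.58 in sf3 and 0.31 to 0.53 in sf2. These 3 comparisons share the wt arrays. For SBPASE, called in the mutants and not in wt, the difference of response was -0.07 in sf6 (-0.43 to 0.30), -0.05 in sf3 (-0.41 to 0.31) and -0.17 in sf2 (-0.53 to 0.20). For RCA in sf2 it was -0.26 (-0.72 to 0.20, adjusted p = 0.711), and for PRK the 3 values lay between -0.05 and 0.09. The drought response of the 4 genes in sf6 differed from that in wt by -0.16 to 0.23, and there 0% of all probe sets were called by limma (1099 had an unadjusted p under 0.05, none of them a member).

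The compost groups were compared among themselves, and SBPASE and TRXF2 were called in opposite directions in 24f relative to 03f. Both 03f arrays lay below both 00f arrays for each of the 4 genes, as they did for 40.7% of all probe sets. In 03f relative to 00f, PRK fell, with a log2 difference of -0.54 (95% interval -0.85 to -0.23, limma adjusted p = 0.0155), and so did TRXF2 (-0.48, -0.84 to -0.12, adjusted p = 0.0449). SBPASE had -0.25 (-0.54 to 0.05) and RCA -0.12 (-0.49 to 0.24), neither called, so 2 of 4 genes passed where 30.4% of all probe sets did. The median of all probe sets was -0.133 in this comparison and 0.007 under median scaling, where PRK had -0.36 (adjusted p = 0.116) and TRXF2 -0.32 (adjusted p = 0.198). PRK was still called under quantile normalization (-0.54, adjusted p = 0.00329) and relative to the bright probe sets (-0.47, adjusted p = 0.000635). Single arrays ended them too. PRK had adjusted p = 0.124 without 00f replicate 1 (-0.43), 0.0631 without 03f replicate 1 (-0.65) and 0.217 without 03f replicate 2 (-0.43). TRXF2 had adjusted p = 0.288 without 00f replicate 2 (-0.25), 0.28 without 03f replicate 1 (-0.34) and 0.0508 without 03f replicate 2 (-0.63).

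In 24f relative to 00f, SBPASE fell by 0.95 on the log2 scale (95% interval -1.25 to -0.66, limma adjusted p = 0.00022), the largest change of this gene in any comparison made. The other 3 were not called, where 42.4% of all probe sets were. TRXF2 had a log2 difference of 0.42 (0.06 to 0.78, adjusted p = 0.0578, and 0.0324 with the replicate block), RCA of 0.18 (-0.19 to 0.54) and PRK of -0.25 (-0.57 to 0.06). Without 00f replicate 2, the higher of that pair, TRXF2 was called higher (0.66, adjusted p = 0.0106), and without 24f replicate 1, the lower of that pair, RCA was (0.39, adjusted p = 0.0199).

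In 24f relative to 03f, SBPASE fell by 0.70 (95% interval -1.0 to -0.41, limma adjusted p = 0.00139) and TRXF2 rose by 0.91 (0.55 to 1.27, adjusted p = 0.000971). None of the alternatives tried ended either call. PRK had 0.29 (-0.03 to 0.60) and RCA 0.30 (-0.07 to 0.67), neither called, so that 2 of 4 genes passed where 46.6% of all probe sets did. Without 24f replicate 1 RCA was called (0.52, adjusted p = 0.00525). TRXF2 and SBPASE, a thioredoxin and a protein that f-type thioredoxins reduce, thus changed in opposite directions between the same 4 arrays. The 3 compost comparisons share arrays and are not independent of each other.

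Some of the markers moved here as well. LHCB4.2 fell in 03f relative to 00f (-0.92) and rose in 24f relative to 00f (0.62) and to 03f (1.54). The summed level of the 2 green markers was 4033.5 and 4435.8 in 00f, 3049.9 and 3171.7 in 03f, and 4981.3 and 6616.8 in 24f. PYK10 rose by 1.70 in 24f relative to 00f and by 1.59 relative to 03f, and the summed level of the 2 root markers was 37.6 and 43.9 in 00f, 43.2 and 45.8 in 03f, and 109.0 and 145.7 in 24f. The higher sum in 24f is that of PYK10. EXPA7 was not called, with means of 18.5 in 00f, 18.2 in 03f and 17.6 in 24f. The part of these changes in those of SBPASE and TRXF2 was not tested.

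The 2 arrays of a group differed in ways that the 4 genes share unequally. RCA gave a gap (replicate 1 minus replicate 2) of -0.42 in sf6 cold, 0.45 in sf3 cold, -0.43 in sf6 drought and -0.44 in 24f on the log2 scale, and of at most 0.17 in size in the other 9 groups. The median gap of 461 other bright probe sets, those with a mean intensity of at least 1000, was -0.21, 0.20, -0.19 and -0.25 in the same 4 groups. Over the 13 groups the gap of RCA followed that median with r = 0.98, that of PRK with 0.80, that of SBPASE with 0.71 and that of TRXF2 with 0.10. By mean intensity RCA, PRK and SBPASE are bright probe sets themselves, and TRXF2 (425.6) is not. The median gap of all tested probe sets was only -0.03 to 0.03 over the 13 groups. These are descriptions over 13 points, and both measures come from the same arrays. The array brighter in RCA had the lower scanner background in 3 of these 4 groups, with 73.22 against 88.66 in sf6 cold, 64.47 against 90.94 in sf6 drought and 70.61 against 106.46 in 24f, and the higher one in sf3 cold (93.19 against 90.96). The part of the background in the gaps was not tested. RCA and the bright probe sets moved together between arrays of 1 group.

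**Figure D3:**
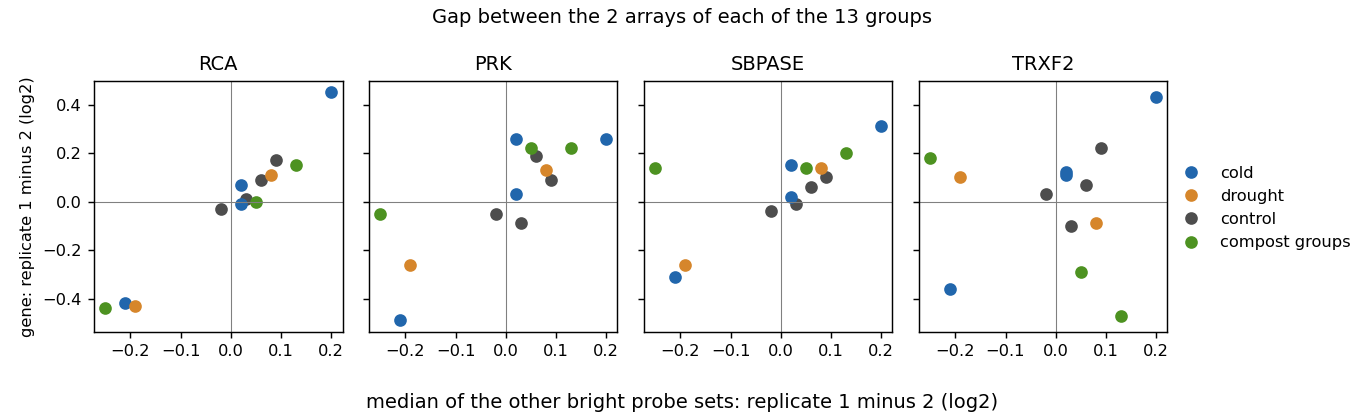
Replicate 1 minus replicate 2 on the log2 scale for each gene (vertical axis) against the median of the same gap over 461 other probe sets with a mean intensity of at least 1000 (horizontal axis), 1 point for each of the 13 groups. The points of RCA lie close to a line (r = 0.98) and those of TRXF2 do not (r = 0.10). The mean intensity of TRXF2 (425.6) is below the limit of 1000, and those of the other genes are above it.

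Setting each array relative to the median of its bright probe sets, an alternative added after these gaps had been seen, changed several calls. RCA was then called lower in sf3 cold (-0.27, adjusted p = 0.0284) and wt cold (-0.30, adjusted p = 0.0149), and higher in 24f relative to 00f (0.34, adjusted p = 0.00341) and to 03f (0.40, adjusted p = 0.000572). SBPASE was then called in wt cold too (-0.32, adjusted p = 0.0015), as was PRK in 24f relative to 03f (0.38, adjusted p = 0.00316). TRXF2 was called higher in 24f relative to 00f (0.59, adjusted p = 0.0131) and no longer in 03f relative to 00f (-0.42, adjusted p = 0.135). Quantile normalization, which was listed among the alternatives, called RCA in sf3 cold (-0.21, adjusted p = 0.0288) and wt cold (-0.19, adjusted p = 0.0461) and SBPASE in wt cold (-0.27, adjusted p = 0.00267).

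Other genes of the pathway were read from lists chosen by function, of which the array annotation names few members. Beside the 4 genes, 2 of 25 genes of the Calvin cycle list were measured. Both fell in wt cold, where 26.4% of all tested probe sets were called lower. AT5G64380 gave 44.1 and 51.8 in wt cold, against 161.9 and 157.1 in wt control (log2 difference -1.46, limma adjusted p = 5.54e-08), and AT1G56190 gave 638.6 and 568.5, against 954.7 and 1049.2 (-0.72, adjusted p = 0.000165). Both also fell in sf6, sf3 and sf2. The median log2 difference of the pair in wt was -1.09, against -0.054 over all tested probe sets. Relative to 00f, neither was called in 24f (-0.05 and -0.23), where SBPASE fell.

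Of 22 genes on the list of plastid thioredoxins and their partners, 7 besides TRXF2 were measured, and their falls in wt cold were small. The 3 called lower were ty2 (thioredoxin y2, -0.36), THX (thioredoxin x, -0.33) and ATHM2 (thioredoxin m2, -0.27), and all 3 calls ended under median scaling. Without wt cold replicate 2 they ended too (ty2 -0.28, adjusted p = 0.154; THX -0.28, 0.0831; ATHM2 -0.26, 0.0901), as they did without wt control replicate 1 (-0.34, 0.0953; -0.31, 0.0598; -0.24, 0.115). The ty2 call also ended without wt control replicate 2 (-0.39, 0.0573) and the ATHM2 call without wt cold replicate 1 (-0.28, 0.0589). The other 4 were TY1 (thioredoxin y1, 0.02), NTRC, an NADPH-dependent reductase with its own thioredoxin domain (0.08), AT2G04700 (-0.02) and AT3G11630 (-0.07). The median over the 7 in wt was -0.07, close to that of all probe sets, and the TRXF2 interval of -2.06 to -1.49 in wt lay below each of these values. Of all tested probe sets 26.4% were called lower in wt cold. In the other lines 4 of the 7 were called lower in sf6, 2 in sf3 and 3 in sf2. The medians were -0.24, -0.07 and -0.27, against -0.06, -0.047 and -0.018 over all tested probe sets.

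In 24f relative to 00f, 3 of the same 7 genes were called lower, where 21.4% of all probe sets were called lower and 42.4% in either direction. NTRC gave 207.4 and 152.0 in 24f, against 748.0 and 626.9 in 00f (log2 difference -1.86, limma adjusted p = 5.99e-06), while its 530.6 and 516.6 in wt cold, against 510.0 and 478.8 in wt control, gave a difference that was not called. Thioredoxin y2 gave 317.5 and 266.4 in 24f, against 747.6 and 599.0 in 00f (-1.16, adjusted p = 0.000104), and AT2G04700 fell by 0.38, a call that ended without 00f replicate 1 (-0.30, adjusted p = 0.164). None of the 7 was called higher, their median was -0.30, and TRXF2 had 0.42. Cpn60beta2 gave 113.7 and 102.6 in 24f, against 474.5 and 398.7 in 00f (-1.86, adjusted p = 1.46e-06), and it had -0.06 in wt cold.

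Of 5 other plastid genes listed as light-regulated disulfide enzymes, 3 were measured. Arrays do not show whether light regulates the protein of each. AT5G58330, the NADP-dependent malate dehydrogenase, fell in wt cold (-0.50), as did ATPC1, the gamma subunit of the plastid ATP synthase (-0.28). ATPC2, a second gamma subunit gene, rose (0.55). Of all tested probe sets 26.4% were called lower there and 47.2% in either direction. ATPC2 was dim, near the array medians of 38.2 to 44.4. It gave 53.1 and 53.9 in wt cold, against 29.2 and 34.1 in wt control. The ATPC1 call (adjusted p = 0.0474) ended under median scaling (-0.14), with no filter on dim probe sets, with all 26 arrays in one fit, with the replicate block (adjusted p = 0.0582) and without any 1 of the 4 wt arrays (adjusted p = 0.0594 to 0.247). That of AT5G58330 ended without wt cold replicate 2 (-0.38, adjusted p = 0.0665), and that of ATPC2 without wt control replicate 1 (0.47, adjusted p = 0.0762). ATPC2 was called in no other line, with -0.18 in sf6, -0.14 in sf3 and 0.16 in sf2. None of the 3 was called in 24f relative to 00f.

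Photorespiration recovers the carbon of the product that Rubisco makes with oxygen, and 4 of 13 genes on its list were measured. HPR, the hydroxypyruvate reductase gene, gave 1489.7 and 1293.3 in wt cold, against 2814.4 and 2699.9 in wt control (log2 difference -0.98, limma adjusted p = 9.64e-07). AT1G80380 (-0.74) and AT1G11860 (-0.52) fell as well, and AT1G32470 (-0.27, adjusted p = 0.0845) was not called. The AT1G11860 call ended without wt cold replicate 2 (-0.40, adjusted p = 0.0722). The median of the 4 was -0.63, and 26.4% of all tested probe sets were called lower in wt cold. In 24f relative to 00f, AT1G11860 (-1.03) and AT1G32470 (-0.52) fell, while HPR (-0.06) and AT1G80380 (-0.16) were not called. There 21.4% of all probe sets were called lower. The AT1G32470 call ended without 00f replicate 1 (-0.28, adjusted p = 0.16) or 24f replicate 1 (-0.47, 0.0772).

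**Figure D4:**
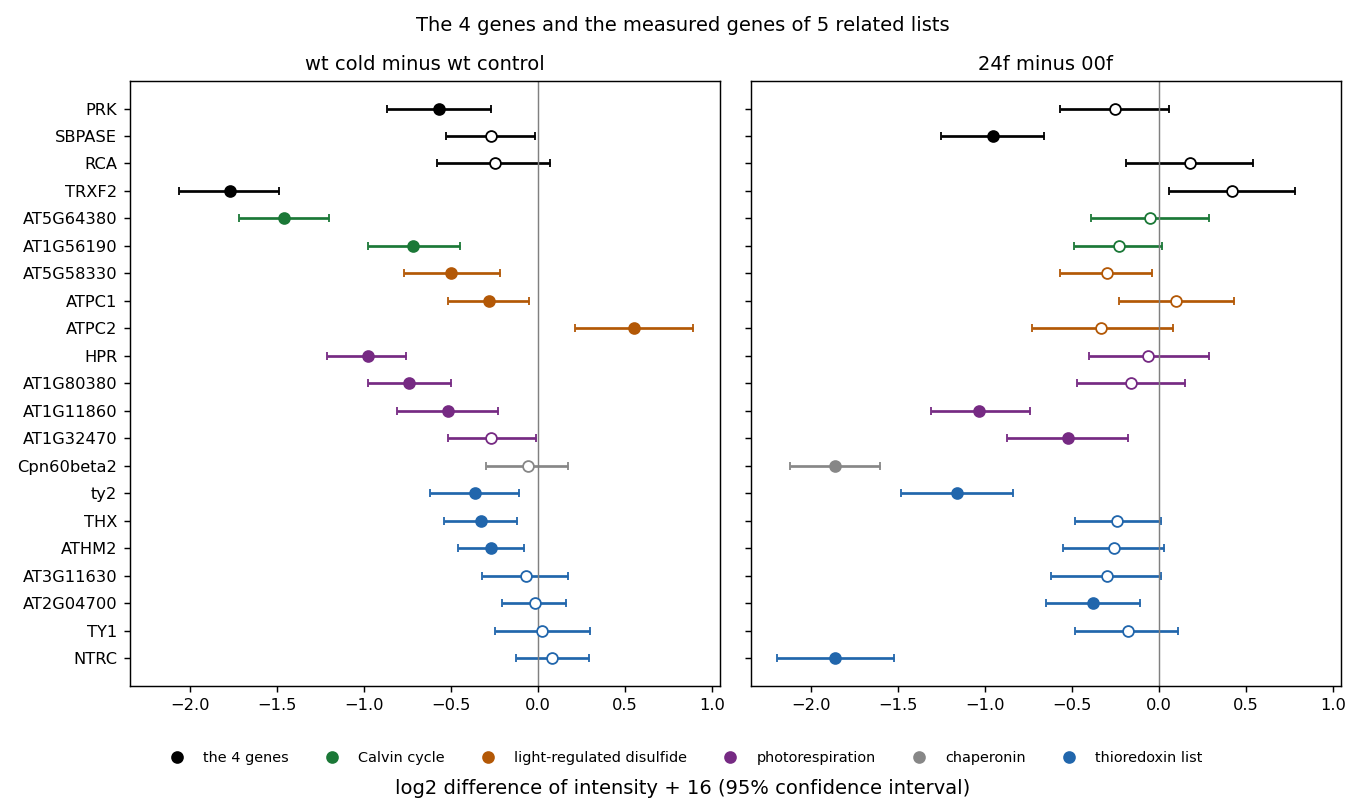
Log2 difference of intensity + 16 with its 95% confidence interval in wt cold minus wt control (left) and 24f minus 00f (right) for the 4 genes and 17 measured genes of 5 lists, coloured by list; filled points passed the limma adjusted p of 0.05. TRXF2 has the lowest value on the left (-1.77) and the highest on the right (0.42), where NTRC and Cpn60beta2 (both -1.86) lie lowest.

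Among 9426 genes with a named probe set above the filter on dim values, those most like each member over the 13 group means of log2(intensity + 16) were listed by Pearson r. ATPC1 (0.958), GAPC2 (0.955), a cytosolic glyceraldehyde-3-phosphate dehydrogenase, and AT4G16980 (0.94) were most like RCA. AT3G06130 (0.992), AT1G68780 (0.982) and AT5G58480 (0.982) were most like PRK, and had low mean intensities of 57.5 to 70.4. LrgB (0.993), a plastid transporter of photorespiration, FTSZ2-2 (0.983), a plastid division protein, and AT3G47070 (0.98) were most like SBPASE. AT3G53100 (0.99), AT1G12010 (0.987) and AT1G55960 (0.987) were most like TRXF2. AT1G12010 was dim, with a mean intensity of 17.3, near the pseudocount of 16. Over the 26 single arrays it stood only at place 249. Among the 9426 genes, r was over 0.9 for 42 genes with RCA, 305 with PRK, 119 with SBPASE and 438 with TRXF2. These lists depend on the groups used, since over the 10 agar groups alone 1 of the 3 genes named for RCA stayed among the first 3 and none of those named for the other members did.

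The members were not each other's closest genes. PRK stood at place 144 in the list of RCA, TRXF2 at place 160 in that of PRK, PRK at place 411 in that of SBPASE and PRK at place 261 in that of TRXF2. Over the 13 group means PRK correlated with TRXF2 at r = 0.93, with RCA at 0.86 and with SBPASE at 0.8. Over the 10 agar groups these values were 0.97, 0.82 and 0.94. No large shift separates the 6 control and drought groups. Within them the group means of PRK correlated with those of SBPASE at r = 0.76, of RCA at 0.66 and of TRXF2 at -0.15. RCA correlated with SBPASE at 0.45 there. These are descriptions over 6 to 13 points that share their arrays.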

How the data were processed

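Transcript levels were measured on 26 ATH1 arrays, 2 for each of 13 groups, with biotin-labelled cRNA per the labels' protocols. The deposited table holds 1 linear intensity for each of 22810 probe sets and array, and the authors scaled each array to a common trimmed mean, as the deposited intensity values show. The summary software is not given in the sources used here. Gene names come from the platform annotation, matched to loci through RefSeq (TAIR10.1).

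From these values log2(intensity + 16) was computed and fitted by group with limma 3.58.1 in R 4.3.3 (lmFit, eBayes with trend, Benjamini-Hochberg adjustment over all probe sets tested). The 20 agar arrays entered one fit and the 6 compost arrays another. Control probe sets and those with a mean below the 25th percentile of their fit were left out, which left 17059 and 17062, and all 4 members passed. Adjusted p was called under 0.05. SDs cover the 2 arrays in each group. The fit was tested on simulated data. The rule for named genes took the 4 members, per list up to 4 genes with the smallest adjusted p in wt cold and any called the other way, and the 3 genes most alike to each member by r. Genes of the lists named beyond that were chosen after their values were seen.

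The members and gene lists were chosen with earlier results of these data known. Replicate numbers are shared across groups, but same-numbered agar arrays did not deviate together (r -0.247 to 0.245 over 45 pairs of groups, over 0.1 in 5). For the 3 pairs of compost groups r was 0.0999, 0.115 and 0.206, and pairing was taken only where every r was over 0.1, so neither set was treated as pairs, in the compost set by a narrow margin. Alternatives were other pseudocounts, filters, scalings, fits and weights, and leaving out arrays.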

Additional observations from a re-analysis of the deposited data

How the results depend on the processing

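Each of the 84 differences of the 4 genes was refitted under the alternatives, and no called value changed sign. Median scaling ended 5 calls: RCA in the mean of the 4 lines (-0.17, adjusted p = 0.0582), SBPASE in sf6 cold (-0.22) and sf3 cold (-0.21), and PRK (-0.36) and TRXF2 (-0.32) in 03f minus 00f. With no filter on dim probe sets SBPASE in sf6 cold (-0.34, adjusted p = 0.0574) and sf3 cold (-0.32, 0.0728), PRK (-0.54, 0.0526) and TRXF2 (-0.48, 0.116) in 03f minus 00f lost theirs. When a fit held only the groups compared, SBPASE lost its call in sf6 cold (-0.34, 0.0724) and sf3 cold (-0.32, 0.139) and gained one in wt cold (-0.27, 0.0484), and TRXF2 lost that in 03f minus 00f (-0.48, 0.0572). Array weights ended the SBPASE call in sf3 cold (-0.32, 0.0732), and a pseudocount of 1 that of TRXF2 in 03f minus 00f (-0.52, 0.0503). TRXF2 in 24f minus 00f was called with a pseudocount of 64 (0.36, 0.0498), with all 26 arrays in one fit (0.42, 0.0301) and with the replicate block (0.42, 0.0324), which changed no other call of the 4 genes and moved the share of all probe sets called in 03f minus 00f to 34.3%, against 30.4%. The block was planned as an alternative, since the labels give no pairing beyond the replicate number. The r values between groups did not meet the rule for pairs either, in the compost set by a narrow margin (0.0999).

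Quantile normalization gave calls to RCA in wt cold (-0.19) and sf3 cold (-0.21), SBPASE in wt cold (-0.27) and PRK in 24f minus 03f (0.35, 0.0172). Scaling to the bright probe sets, added after seeing the data, gave calls to RCA in wt cold (-0.30), sf3 cold (-0.27), 24f minus 00f (0.34) and 24f minus 03f (0.40), to SBPASE in wt cold (-0.32), to PRK in 24f minus 03f (0.38), to TRXF2 in 24f minus 00f (0.59) and in sf2 cold minus wt cold (0.71), and ended that of TRXF2 in 03f minus 00f (-0.42). For these settings the cause was not tested.

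Leaving out 1 array at a time gave, for RCA, -0.31 to 0.10 in sf6 cold, -0.47 to -0.03 in sf3 cold, -0.56 to -0.47 in sf2 cold, -0.04 to 0.39 in 24f minus 00f and 0.08 to 0.52 in 24f minus 03f. For PRK it gave -0.70 to -0.44 in wt cold, -0.81 to -0.32 in sf6 cold, -0.58 to -0.39 in sf2 cold and -0.65 to -0.43 in 03f minus 00f. For SBPASE it gave -0.49 to -0.18 in sf6 cold, -0.48 to -0.17 in sf3 cold and -0.47 to -0.41 in sf2 cold, and for TRXF2 -0.72 to -0.25 in 03f minus 00f and 0.19 to 0.66 in 24f minus 00f. Such fits leave 1 array in a group, assumed to vary like the others. Leaving out both arrays whose titles end in repeat1 changed no call among 48 differences. The planned use of another probe set of a gene was not run, since each gene has 1. In wt cold, median scaling cut the list counts called lower to 0 of 7 for thioredoxins, 1 of 3 for other disulfide enzymes and 1 of 2 for green markers. Having 2 arrays a group limits what can be called.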
